A study of Mus musculus with 6 samples.

Results

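The transcripts of the MHC class II antigen presentation pathway were examined in hippocampal RNA of p300+/- mice, which are heterozygous-deficient for p300, and of wild-type littermates. The genes were Cd74, H2-Aa, H2-Ab1, H2-Eb1, H2-DMa, H2-DMb1 and Ciita, and every probe set annotated to exactly 1 of them was taken. This gave 14 probe sets for 6 of the 7 genes, out of 45037 probe sets tested. H2-DMb1 had no probe set of its own, because both probe sets that read it are also annotated to H2-DMb2. The genes were chosen by their genotype difference and covariation on these same arrays, with Cd74 among the highest, so the differences and the covariation of the 14 probe sets are given as a description, without a test.

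Each of the 6 Affymetrix Mouse Genome 430 2.0 arrays carried hippocampal total RNA pooled in equal amounts from 4 animals. The 3 p300+/- pools and the 3 wild-type pools came from 12 females of each genotype, all 3 months old and on a C57BL/6 background, which the submitters call pure C57BL/6J. The wild-type mice were littermates of the mutants. The sources used here do not say how the allele was made. Ep300 encodes p300, an enzyme that acetylates lysines and coactivates many transcription factors. Ep300 itself was at -0.26, -0.22 and -0.50 in p300+/- pools, against 0.22, 0.38 and 0.40 in wild-type pools.

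These values, like those that follow, are log2 intensities relative to the median of the same probe set over the 6 arrays. They compare arrays within a probe set and hold no level that could be set against another gene. A coarse level class (a log2 intensity from 2 to 4, from 4 to 8 or from 8 to 16) could be read from the rounding of the values and is given where it matters. Because each probe set is centred on its median, the middle pair of its 6 values lies at equal distances above and below 0. Over the whole array 0 of 45037 probe sets passed between genotypes (0%, limma, adjusted p threshold 0.05), while 550 (1.22%) had an unadjusted p under 0.05. There was no overlap between genotypes in 2426 probe sets (5.39%), with p300+/- higher in 1435 (3.19%) and lower in 991 (2.20%). Of 10 marker genes of hippocampal neurons, such as Prox1 of the dentate gyrus and Wfs1 of CA1, 9 were in the class from 8 to 16 and 1 in that from 4 to 8. Pools p300+/- 3 and wild-type 2 stood apart from the others together in the mean of the hippocampal neuron markers. This mean was -0.31 in p300+/- 3 and -0.33 in wild-type 2, against 0.038 to 0.12 in the remaining pools. Single markers differed, with Neurod6 and Bok above 0 in p300+/- 3 and wild-type 2, and Neurod1 and Spock1 above 0 in wild-type 2. Over all probe sets the deviations of these 2 pools from the genotype means correlated at 0.65, beside 0.61 for p300+/- 1 and wild-type 1.

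MHC class II molecules are pairs of an alpha and a beta chain that show peptides from the endosome to CD4+ T cells. Newly made pairs are bound by the invariant chain, the product of Cd74, which blocks the groove and carries them to endosomes, where the H2-DM proteins exchange the last invariant chain fragment for a peptide. Transcription of the whole set depends on CIITA, a coactivator that binds no DNA itself but is held at the X and Y boxes of class II promoters by the RFX complex, CREB and NF-Y, and that recruits CBP and p300. In the healthy brain class II is made mainly by macrophages, dendritic cells and B cells of the borders, and little by resting microglia.

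The upstream sequences of 3 of the genes are shown because CIITA acts on class II genes through the X and Y boxes. The 250 bases before the gene start come from RefSeq, build GRCm38.p6, 5′ to 3′ on the strand of the gene. Capitals mark matches to the X box core (AGCAACTGATG in H2-Eb1 and AGTAACTGATG in H2-DMb1, in a search that let any base stand at 4 of its 11 positions), to the Y box ATTGG or its reverse complement CCAAT, and to the CREB site TGACGTCA, searched on both strands. H2-Eb1 lies at chr17:34305617-34305866, plus strand, H2-DMb1 at chr17:34152941-34153190, plus strand, and H2-Aa at chr17:34287824-34288073, minus strand.
H2-Eb1: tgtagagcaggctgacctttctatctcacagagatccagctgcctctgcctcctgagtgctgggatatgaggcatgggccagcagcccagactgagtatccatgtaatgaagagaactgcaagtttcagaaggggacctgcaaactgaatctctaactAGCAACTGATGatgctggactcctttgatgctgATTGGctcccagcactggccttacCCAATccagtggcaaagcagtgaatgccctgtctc
H2-DMb1: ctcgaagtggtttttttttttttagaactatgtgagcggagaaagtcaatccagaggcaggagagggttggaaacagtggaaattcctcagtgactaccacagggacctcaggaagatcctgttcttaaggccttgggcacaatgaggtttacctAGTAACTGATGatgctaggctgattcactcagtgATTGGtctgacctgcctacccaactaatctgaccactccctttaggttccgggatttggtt
H2-Aa: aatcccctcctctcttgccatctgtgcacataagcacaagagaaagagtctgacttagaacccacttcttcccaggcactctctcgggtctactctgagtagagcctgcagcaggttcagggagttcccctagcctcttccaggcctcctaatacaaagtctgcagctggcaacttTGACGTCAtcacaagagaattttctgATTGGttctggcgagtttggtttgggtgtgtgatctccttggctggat

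The H2-Eb1 and H2-DMb1 sequences each hold an X box core followed on the same strand by a Y box, 22 bases further on in H2-Eb1 and 23 bases further on in H2-DMb1. H2-Eb1 has another Y box on the opposite strand. The H2-Aa sequence holds a CREB site and a Y box and no match to the X box core as spelled here. No motif overlapped another. Among the 250 upstream bases of 32851 promoters in the same table, 854 (2.60%) held the X box core, 11120 (33.8%) a Y box and 508 (1.55%) the CREB site. An X box core followed by a Y box on the same strand with 10 to 30 bases between was found in 22 promoters (0.0670%). They belonged to 21 genes, of which 4 were class II genes, namely H2-Eb1, H2-DMb1, H2-Eb2 and H2-Ob, out of 8 class II genes with a promoter in the table. This window and the CREB site were set after the sequences had been seen. A match is a description of letters and not of binding. H2-DMa has 2 promoters in the table, which held no X box core and, in 1 of them, a Y box.

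Cd74 was higher in every p300+/- pool than in every wild-type pool. Its only probe set (1425519_a_at, class from 4 to 8) read 0.24, 0.26 and 0.24 in p300+/- pools, against -0.41, -0.53 and -0.24 in wild-type pools. The p300+/- pools lay close together, with a mean of 0.25 ± 0.015 (SD, n = 3), and the wild-type pools were spread more widely around a mean of -0.39 ± 0.15 (SD, n = 3). The log2 fold change was 0.64 ± 0.12 (SE), which is 1.55-fold with a 95% interval of 1.28 to 1.89. It ran from 0.57 without wild-type 2 to 0.71 without wild-type 3 when 1 array was left out. A hippocampal pool mixes all cell types, so that more cells of a class II-bearing type and more RNA per such cell cannot be told apart, for this gene and for those below.

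The classical class II chains were higher in p300+/- pools on most of their probe sets, with pool p300+/- 3 highest on all but 1. H2-Aa encodes the alpha chain of I-A. Its probe set 1435290_x_at read 0.23, 0.18 and 1.05 in p300+/- pools, against -0.55, -0.18 and -0.18 in wild-type pools. The genotypes did not overlap, and p300+/- 3 stood far above the rest. The log2 fold change was 0.79 ± 0.25 (SE), or 1.73-fold with a 95% interval of 1.16 to 2.57, and 0.51 without p300+/- 3. A second H2-Aa probe set, 1438858_x_at, the only member in the class from 8 to 16, read 0.25, -0.11 and 0.75 in p300+/- pools, against -0.18, -0.041 and 0.041 in wild-type pools. Here pool p300+/- 2 lay among the wild-type pools, and the log2 fold change of 0.36 ± 0.21 (SE) was 0.13 without p300+/- 3. The other H2-Aa probe sets gave 0.14 ± 0.13 (1452431_s_at) and -3.4e-05 ± 0.10 (1443783_x_at, class from 2 to 4). All 6 values of 1443783_x_at lay between -0.019 and 0.052, a range smaller than that of all but 0.104% of the probe sets tested.

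H2-Ab1 encodes the beta chain that pairs with H2-Aa. Probe set 1450648_s_at read 0.10, -0.037 and 0.47 in p300+/- pools, against -0.23, -0.32 and 0.037 in wild-type pools, giving a log2 fold change of 0.35 ± 0.17 (SE). Probe set 1425477_x_at read 0.044, -0.044 and 0.68 in p300+/- pools, against -0.32, 0.28 and -0.086 in wild-type pools, giving a log2 fold change of 0.27 ± 0.23 (SE). Both overlapped between genotypes, and without p300+/- 3 they came to 0.20 and 0.044. Probe set 1451721_a_at read 0.25, -0.090 and 0.24 in p300+/- pools, against -0.090, -0.25 and 0.090 in wild-type pools, giving a log2 fold change of 0.22 ± 0.15 (SE), which was 0.17 without p300+/- 3. All 3 probe sets had the higher mean in p300+/- pools. Wild-type 2 was the highest wild-type pool on 1425477_x_at and the lowest on the other probe sets.

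H2-Eb1 encodes the beta chain of I-E, whose alpha chain partner H2-Ea is not made in the C57BL/6 strain. Its probe set (1417025_at) read 0.33, 0.040 and 0.55 in p300+/- pools, against -0.41, -0.040 and -0.097 in wild-type pools. All p300+/- pools lay above all wild-type pools, though p300+/- 2 and wild-type 2 were separated by little. The log2 fold change was 0.49 ± 0.17 (SE), or 1.40-fold with a 95% interval of 1.07 to 1.85, and 0.37 without p300+/- 3. The 3 probe sets of H2-Ea, which RefSeq lists as a transcribed pseudogene, had log2 fold changes of 0.058, -0.058 and -0.065.

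**Figure D1:**
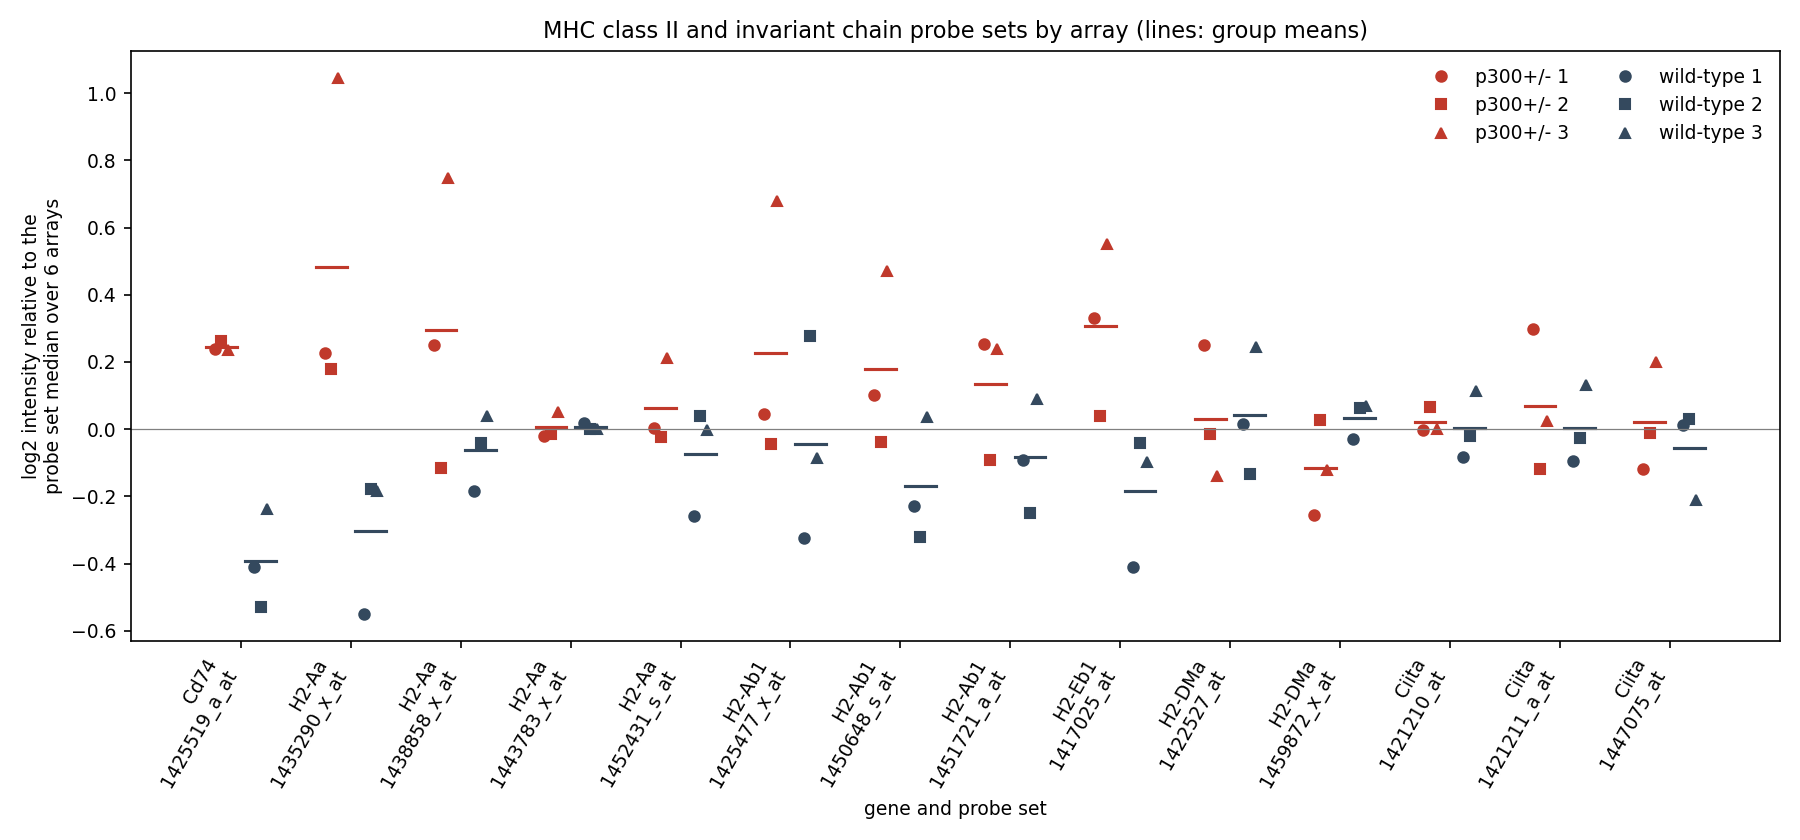
Log2 intensity relative to the probe set median over the 6 arrays (vertical axis) for the 14 probe sets (horizontal axis), with p300+/- pools in red left of wild-type pools in dark blue, a symbol per pool number and a line at each group mean. Cd74 is tight in p300+/- pools at 0.24 to 0.26, while the H2-Aa, H2-Ab1 and H2-Eb1 probe sets are spread, with p300+/- 3 up to 1.05.

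The genotype difference of H2-DMa and Ciita was nearer 0 than that of most chain probe sets. H2-DMa, the alpha chain of H2-DM, read 0.25, -0.015 and -0.14 in p300+/- pools, against 0.015, -0.13 and 0.25 in wild-type pools on probe set 1422527_at. The pools of both genotypes covered the same range, and the log2 fold change of -0.011 ± 0.15 (SE) had 95% bounds of -0.37 and 0.35. On the other probe set, 1459872_x_at in the class from 2 to 4, it was -0.15 ± 0.12. The probe sets shared by H2-DMb1 and H2-DMb2, which encode H2-DM beta chains, gave 0.013 ± 0.12 (1418638_at) and 0.24 ± 0.12 (1449580_s_at). The second read 0.094, 0.0035 and 0.16 in p300+/- pools, against -0.21, -0.0035 and -0.26 in wild-type pools, without overlap, and these values cannot be assigned to either gene.

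Ciita differed little on any of its 3 probe sets. Probe set 1421210_at read -0.0019, 0.068 and 0.0019 in p300+/- pools, against -0.084, -0.019 and 0.12 in wild-type pools, giving a log2 fold change of 0.019 ± 0.11 (SE). The p300+/- pools lay inside the range of the wild-type pools. The other probe sets gave 0.065 ± 0.14 (1421211_a_at) and 0.079 ± 0.13 (1447075_at, class from 2 to 4), also with overlap. The 95% intervals of the 3 reached from -0.27 at the lowest to 0.40 at the highest. The sign of each turned with at least 1 array left out, with values down to -0.025, -0.050 and -0.0091.

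**Figure D2:**
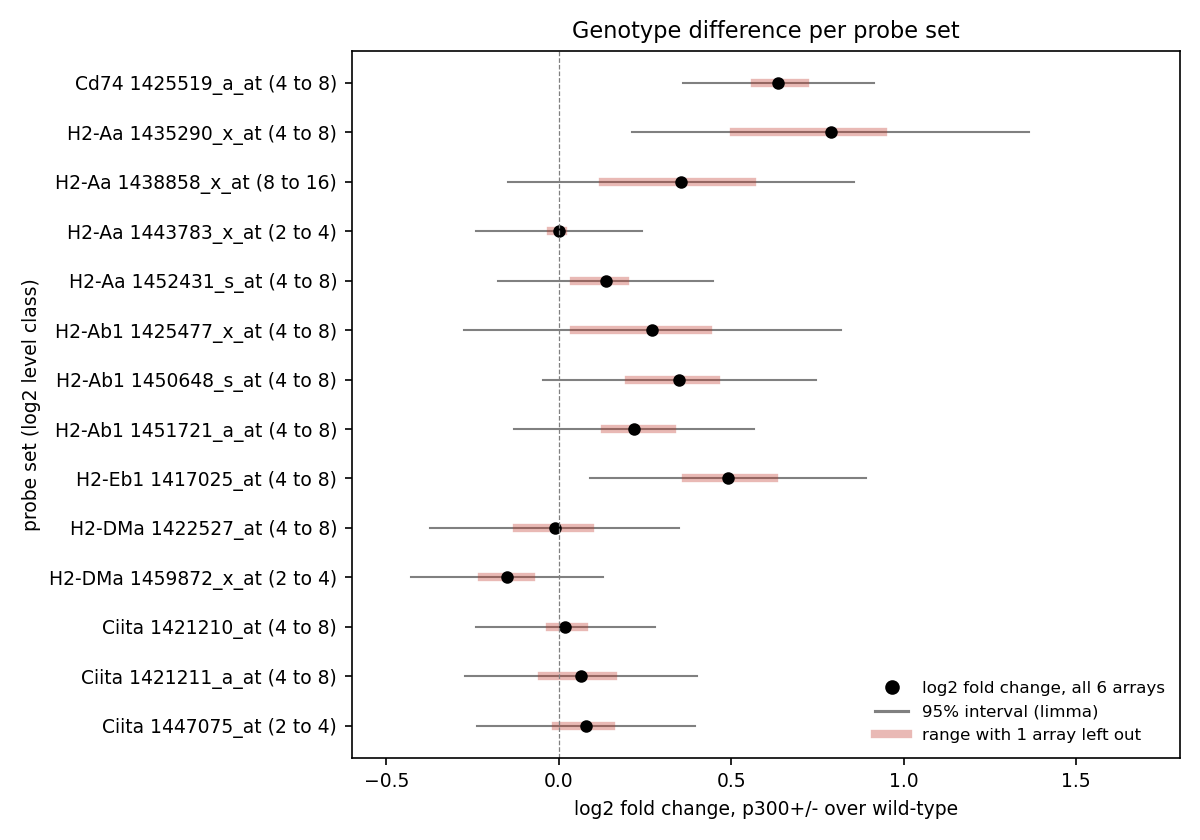
Log2 fold change of p300+/- over wild-type (horizontal axis) for the 14 probe sets (vertical axis, with the log2 level class in brackets), as black points with the 95% interval from limma in grey and the range with 1 array left out in red. The points of Cd74 (0.64), H2-Eb1 (0.49) and 1 H2-Aa probe set (0.79) lie farthest to the right, and those of H2-DMa and Ciita lie between -0.15 and 0.079.

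Over all 14 probe sets, 11 had higher and 3 lower values in p300+/- pools, beside 51.7% higher among all probe sets tested. Their median log2 fold change was 0.18, against 0.0057 over all probe sets tested. The genotypes did not overlap in 3 of the 14, all with p300+/- higher, beside 3.19% of all probe sets in that direction, a contrast that the choice of genes had used. The median was 0.081 without p300+/- 3, and 0.10 without both p300+/- 3 and wild-type 2. Without p300+/- 2, 6 members were higher and 1 lower without overlap, beside 15.1% of all probe sets in either direction. Without wild-type 3 there were 5 higher, beside 12.9%, and without both p300+/- 3 and wild-type 2 there were 4 higher and 1 lower, beside 28.3%. The 3 member probe sets in the class from 2 to 4 had log2 fold changes between -0.15 and 0.079, and the 10 in the class from 4 to 8 ran from -0.011 to 0.79. Cd74 is read by a single probe set, so no second probe set checks it.

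The chains moved together from pool to pool, and Cd74 followed them less closely once each genotype was centred. The 28 pairs among the 8 probe sets of H2-Aa, H2-Ab1 and H2-Eb1 had a median Pearson r of 0.79 over the 6 arrays (0.24 to 0.95). After each genotype had been centred on its own mean the median was 0.76, and all 28 stayed above 0. Averaged by gene, H2-Aa and H2-Ab1 had a Pearson r of 0.98 and a Spearman rho of 0.94, H2-Aa and H2-Eb1 0.95 and 0.94, and H2-Ab1 and H2-Eb1 0.93 and 0.83. Without p300+/- 3 and wild-type 1, the pools farthest from the H2-Aa and H2-Ab1 medians, the 3 values of r were 0.85, 0.99 and 0.78. The points are 6 pools on the same arrays, and several of these probe sets carry suffixes for probes that can bind more than 1 transcript, so they are not independent readings.

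Cd74 and the mean of the 8 chain probe sets had a Pearson r of 0.68 and a Spearman rho of 0.71 over the 6 arrays. With each genotype centred, r was 0.037. Cd74 varied little among p300+/- pools (SD 0.015, against 0.15 in wild-type pools), so the centred r rests mostly on the 3 wild-type pools. Without centring, r was 0.45 when wild-type 1 and wild-type 2 were left out. The chain mean was 0.15, -0.013 and 0.50 in p300+/- pools, against -0.25, -0.064 and -0.025 in wild-type pools. Wild-type 2 was thus lowest for Cd74 and wild-type 1 lowest for the chains, while p300+/- 3 was highest for the chains and level with the other mutant pools for Cd74.

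Single H2-DMa and Ciita probe sets covaried with each other and with the chains in both directions. The 10 pairs among their 5 probe sets had a median r of -0.20 (-0.90 to 0.72), and 40 pairs with the chains a median of 0.072 (-0.76 to 0.75). The mean of the 3 Ciita probe sets had an r of 0.92 and a rho of 0.83 with the chain mean, 0.87 with each genotype centred and 0.88 without p300+/- 3 and wild-type 1. That mean spanned from -0.056 in wild-type 1 to 0.076 in p300+/- 3, and the single Ciita probe sets had r between -0.32 and 0.75 with the chain probe sets.

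**Figure D3:**
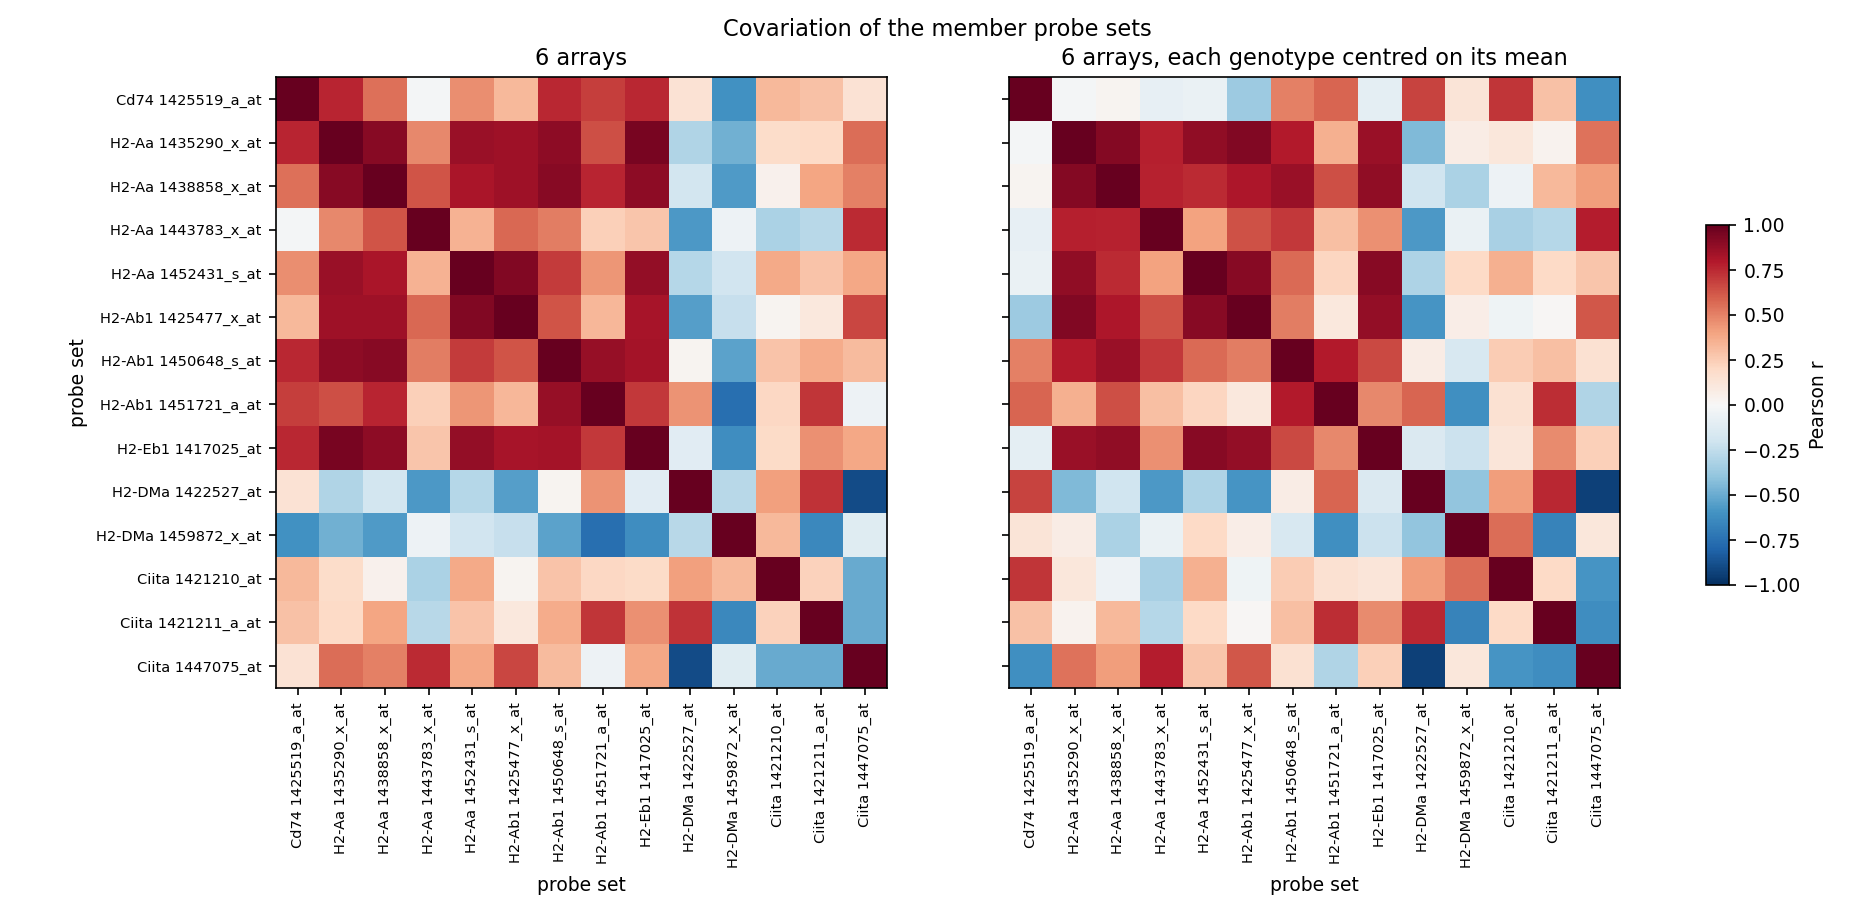
Pearson r between the 14 probe sets (both axes) over the 6 arrays, on the left as deposited and on the right with each genotype centred on its mean, with colours running from blue (-1) to red (1). The block of H2-Aa, H2-Ab1 and H2-Eb1 stays red on the right (median 0.76), while the Cd74 row fades, from a median of 0.62 with the chains to -0.042. The centred Cd74 values run from -0.36 to 0.58 with the chains and rest mostly on the wild-type pools.

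Along chromosome 17 the chain genes lie side by side, and the median log2 fold change of their 8 probe sets was 0.31. Some neighbouring probe sets, such as 1 of Tap1 at 0.21, exceeded the lowest chain probe sets, such as 1452431_s_at of H2-Aa at 0.14. In RefSeq order the class II region runs from H2-Oa to H2-Ea and holds 15 genes, 14 of them with a probe set of their own. The 10 genes that are not members were read by 19 probe sets, of which 13 had higher values in p300+/- pools, with a median log2 fold change of 0.058. The genotypes did not overlap in 2 of the 19, with p300+/- higher, beside 3.19% of all probe sets in that direction. The first was of Psmb8, an immunoproteasome subunit, at 0.31 ± 0.11 (SE), with -0.075 and overlap on its other probe set. The second was of H2-Ob, the beta chain of the H2-DM inhibitor H2-O, at 0.15 ± 0.11 in the class from 2 to 4. H2-Ob, next to H2-Ab1, read 0.0044, 0.095 and 0.22 in p300+/- pools, against -0.0044, -0.030 and -0.085 in wild-type pools. H2-DMb2 was at 0.16 ± 0.16. H2-Eb2, next to H2-Eb1 on the other side and a carrier of the X and Y box pair, was at 0.012 ± 0.12. Cd74 and Ciita lie on other chromosomes.

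**Figure D4:**
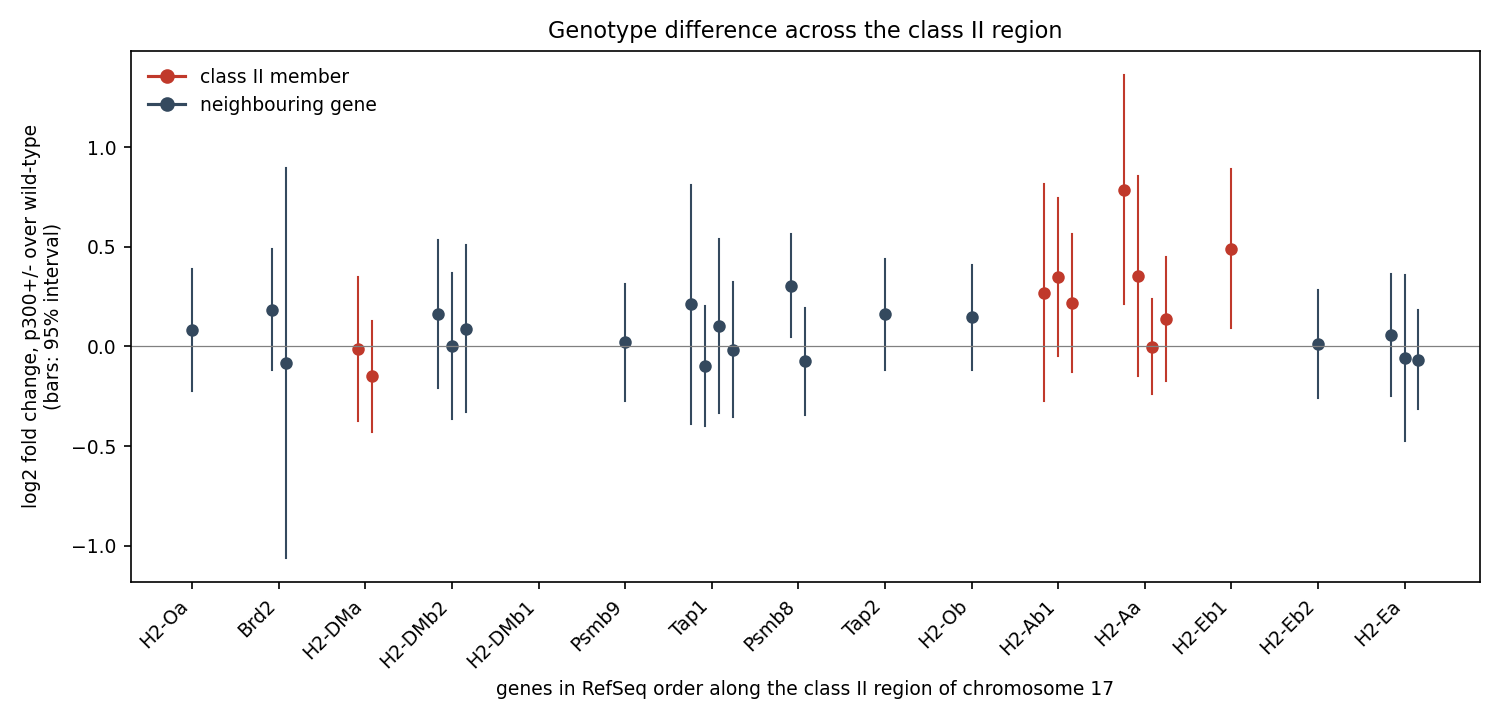
Log2 fold change of p300+/- over wild-type with its 95% interval (vertical axis) for each probe set of the 15 genes from H2-Oa to H2-Ea, in their order on chromosome 17 (horizontal axis, spacing not to scale). Members are red and neighbouring genes dark blue, and the highest points are those of H2-Aa (0.79) and H2-Eb1 (0.49).

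The factors that act on class II promoters split evenly. Of 10 genes, each read by its first probe set, 5 had higher and 5 lower values in p300+/- pools, with a median log2 fold change of 0.028, and none passed over all probe sets (limma). An unadjusted p under 0.05 (limma) was found for 2 of them, beside 1.22% of all probe sets. These were Ep300 at -0.66 ± 0.13 (SE) and Creb1 at 0.40 ± 0.17. Ep300, counted among the 5 lower genes, is the gene for which the mutants are deficient. Creb1, whose product binds the X2 part of the X box, read -0.024, 0.50 and 0.33 in p300+/- pools, against -0.14, 0.024 and -0.29 in wild-type pools, and its 5 other probe sets ran from -0.23 to 0.46. Rfxap, a subunit of the RFX complex, showed no overlap at 0.14 ± 0.12, while its other probe set was at -0.10. Of 9 genes of the interferon gamma pathway, the main inducer of Ciita, 7 were higher, with a median of 0.035 and none passing (limma, 0 also at an unadjusted p under 0.05). Ifngr2, a receptor subunit, was at 0.40 ± 0.18 and, on another probe set, at -0.027, and the kinase gene Jak1 was at 0.098 ± 0.12, with its other probe sets at 0.11 to 0.54.

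Genes of the endosomal steps had values of both signs. Of 12 proteases and turnover factors 8 were higher, with a median log2 fold change of 0.064 and none passing (limma, 0 at an unadjusted p under 0.05). Marchf1, the ubiquitin ligase that removes class II molecules from the cell surface, read -0.024, -1.06 and -0.15 in p300+/- pools, against 0.36, 0.024 and 0.16 in wild-type pools. The genotypes did not overlap, with p300+/- 2 far below the rest, and the log2 fold change was -0.59 ± 0.27 (SE), beside -0.36 and -0.26 on its 2 other probe sets. The cathepsin gene Ctsz was at 0.21 ± 0.12, beside 0.0017 and 0.19 on its 2 other probe sets. Of 5 partners of the invariant chain at the cell surface, 3 were higher (median 0.024), with the receptor gene Cd44 at -0.30 ± 0.25 and Mif, a cytokine that binds CD74, at 0.11 ± 0.12. Their other probe sets ran from -0.49 to 0.086 for Cd44 and from -0.11 to 0.10 for Mif. On their first probe sets all 5 costimulation genes had lower values (median -0.13), while the other probe sets reached 0.25 for Cd40 and 0.32 for Cd80. Cd86 read -0.11, -0.025 and -0.25 in p300+/- pools, against 0.025, 0.95 and 0.063 in wild-type pools, so that wild-type 2 stood far above the others, and Cd40 was at -0.20 ± 0.11. None of these 10 genes passed (limma, 0 at an unadjusted p under 0.05).

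Class I presentation genes had higher values on the first probe set in 11 of 11 cases (median log2 fold change 0.16), beside 51.7% of all probe sets tested. The list was chosen with earlier results of these data known, so this count is a description. The other probe set of Psmb8 was at -0.075. Further probe sets ran from -0.097 to 0.10 for Tap1 and from -0.039 to 0.47 for H2-D1. Those of H2-K1, Erap1, B2m and Tapbp all had higher values in p300+/- pools. None passed, and 3 had an unadjusted p under 0.05 (limma), beside 1.22% of all probe sets. Among the 3 were Psmb8 and H2-K1, a class I heavy chain, at 0.32 ± 0.13 (SE). The list mean was 0.044, 0.061 and 0.19 in p300+/- pools, against -0.12, -0.14 and -0.017 in wild-type pools.

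Among marker lists for cells that could carry class II transcripts, the means for microglia, border macrophages and dendritic cells overlapped between genotypes. The part of these cells in the class II values was not tested. The mean of 17 microglia markers was -0.12, -0.069 and 0.24 in p300+/- pools, against -0.11, 0.28 and -0.024 in wild-type pools, with 8 genes higher and 9 lower. The 2 with the smallest p were Mpeg1, a pore-forming protein of macrophages, at -0.71 ± 0.20 (SE) and the integrin gene Itgam at 0.23 ± 0.16. Mpeg1 read -0.41, -0.47 and -0.14 in p300+/- pools, against 0.14, 0.81 and 0.17 in wild-type pools, lower and without overlap. The mean of 8 border macrophage markers was -0.10, 0.084 and 0.18 in p300+/- pools, against -0.16, 0.30 and -0.071 in wild-type pools, with 4 higher and 4 lower, among them Cd163 at 0.20 ± 0.15 and Pf4 at 0.21 ± 0.24. The means of both lists were highest in p300+/- 3 and wild-type 2, while in the chain mean p300+/- 3 was highest and wild-type 2 was not raised. Single markers differed from the list means. Cx3cr1 was lowest in p300+/- 3 and wild-type 2, at -1.13 and -0.87, and Cbr2 was at -0.061 in p300+/- 3. For 7 dendritic cell markers the mean ran from -0.0029 to 0.040 in p300+/- pools and from -0.11 to 0.074 in wild-type pools, with Batf3 at 0.15 ± 0.13 and Flt3 at -0.16 ± 0.14. No dendritic cell or border macrophage marker was in the class from 8 to 16.

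The list means of blood cell markers other than those of T cells were highest in p300+/- 3, the pool where the chains were highest. Each of these lists also held genes that were not highest there, such as Ms4a1 and Ighm, Plac8, and Slc4a1 and Hba-a1. The mean of 7 B cell markers was 0.0076, 0.012 and 0.21 in p300+/- pools, against 0.017, 0.043 and -0.18 in wild-type pools, with Pax5 at 0.21 ± 0.15 (SE) and Cd79a at 0.19 ± 0.20. Cd79b, a subunit of the B cell receptor, reached 1.03 in p300+/- 3 and was between -0.12 and 0.34 elsewhere, and was picked out after its values were seen. Monocyte and neutrophil markers (7 genes) averaged -0.086, 0.17 and 0.42 in p300+/- pools, against -0.091, 0.18 and -0.19 in wild-type pools, with the granule protein gene Ngp at 0.43 ± 0.19 and S100a8 at 0.34 ± 0.26. Erythroid markers (3 genes) averaged 0.022, -0.029 and 0.23 in p300+/- pools, against -0.085, 0.10 and -0.16 in wild-type pools, with the heme synthesis gene Alas2 at 0.46 ± 0.26 and Hba-a1 at -0.15 ± 0.14. T cell markers (6 genes) ran from -0.062 to 0.10 in p300+/- pools and from -0.17 to 0.13 in wild-type pools, with Cd4 at -0.15 ± 0.13, beside 0.13 on its other probe set, and Cd3g at 0.19 ± 0.22. The part of blood cells in the high chain values of p300+/- 3, or in the values of Cd74, was not tested. Without p300+/- 3 the Cd74 log2 fold change was 0.64. Because the values hold no level, whether any of these markers was absent cannot be read from them, beyond the level classes.

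Of the tissue at the border of the hippocampus, 9 choroid plexus markers averaged 0.15, -0.10 and 0.35 in p300+/- pools, against -0.16, -2.51 and 0.23 in wild-type pools, with the klotho gene Kl at 0.90 ± 0.52 (SE), beside 0.013 on its other probe set, and the folate receptor gene Folr1 at 1.17 ± 0.69. Wild-type 2, the pool low in these markers, was also the lowest for Cd74. The part of choroid plexus in this was not tested, and without wild-type 2 the Cd74 log2 fold change was 0.57. Vascular and meningeal markers averaged -0.027, 0.15 and 0.14 in p300+/- pools, against -0.13, -0.054 and 0.0084 in wild-type pools, with 9 of 12 genes higher, including the matrix genes Dcn at 0.37 ± 0.15 and Vtn at 0.28 ± 0.12. The other probe set of Dcn was at -0.18, and that of Vtn at 0.20. Their part in the class II values was not tested either. None of the genes in these marker lists passed over all probe sets (limma). An unadjusted p under 0.05 (limma) was found for 2, namely Mpeg1 and Dcn, beside 1.22% of all probe sets.

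**Figure D5:**
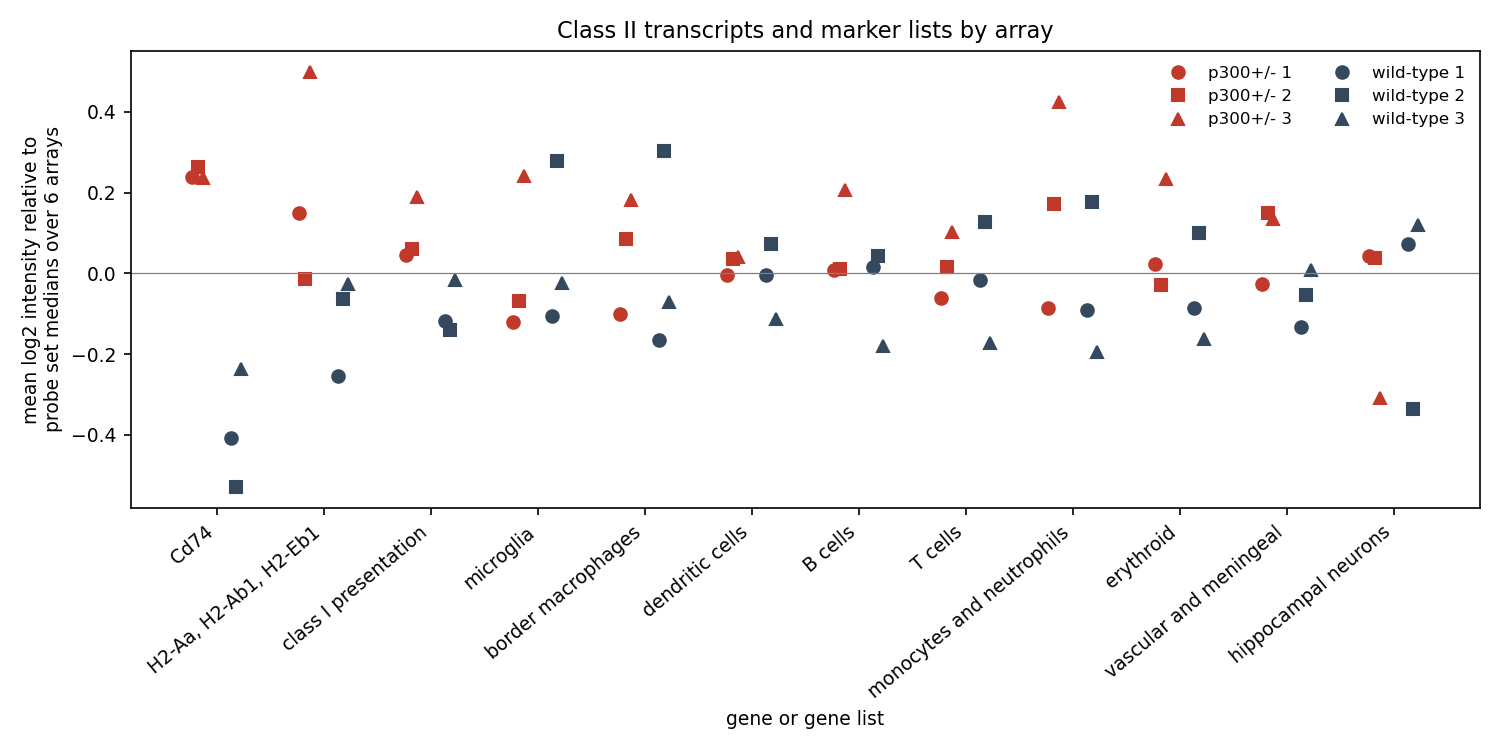
Mean log2 intensity relative to the probe set medians (vertical axis) for Cd74, for the 8 chain probe sets and for 10 gene lists (horizontal axis), with p300+/- pools in red left of wild-type pools in dark blue and a symbol per pool number. Cd74 separates the genotypes, from 0.24 to 0.26 in p300+/- and from -0.53 to -0.24 in wild-type pools. The means of the microglia and border macrophage markers are highest in p300+/- 3 and wild-type 2.

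The genes whose pattern over the 6 arrays was most like that of Cd74 differed from those most like the chains. Among 15040 single-gene probe sets with an SD of at least 0.2 over the arrays, 42 (0.279%) had an r of at least 0.9 with Cd74 and 122 (0.811%) with the chain mean. The 10 genes nearest to Cd74 were Rlf (r = 0.99), Bcl11a (0.98), Ksr1 (0.98), Nudt4 (0.97), Card10 (0.97), Adgrl3 (0.96), Fuca1 (0.96), Gcnt2 (0.96), Cast (0.96) and Creb1 (0.96, on another probe set than the one named above). With each genotype centred these values were between 0.48 and 0.94. The 10 nearest to the chain mean were Cp, the gene of ceruloplasmin (r = 0.99), Armc6 (0.99), Prr5 (0.99), Morn2 (0.98), Ttc12 (0.98), Adamts10 (0.97), Htr1f (0.97), Prph (0.97), Cd99 (0.97) and AU022252 (0.97). Cp read 0.24, -0.0021 and 0.82 in p300+/- pools, against -0.25, -0.013 and 0.0021 in wild-type pools. No gene was on both lists. With 6 points and this many probe sets, such values of r describe these arrays and nothing more.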

How the data were processed

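Hippocampal RNA was measured on 6 Affymetrix Mouse Genome 430 2.0 arrays. RNA came from Trizol extraction and RNeasy columns and was pooled from 4 animals per array, per the labels' protocols, and GeneSpring GX was used for processing and normalization. Its version and steps, such as probe summarization, were not given in the sources used here. Per array, the deposited log2 values are differences from each probe set's median over the 6 arrays (within 5e-07 of 0). The base is not stated and was taken as 2, so fold changes rest on it. The number of arrays limits the precision, and the median SE of a log2 fold change was 0.15.

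Level classes were read from the binary grid on which a probe set's values lie, with finer grids for lower numbers. They assume single-precision log2 intensities. Only 29 probe sets got none. Values that cross a boundary fall in the lower class.

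After 64 control probe sets were left out, 45037 were fitted with limma 3.58.1 in R 4.3.3 (lmFit, eBayes), p300+/- minus wild-type, two-sided, with Benjamini-Hochberg adjustment over all and a threshold of 0.05. The pools were called independent biological replicates by the submitters. Symbols came from the platform annotation, updated by gene identifier to RefSeq GRCm38.p6 (34945 probe sets with a single symbol, 34741 matched). The members and gene lists were chosen with earlier results of these data known. Lists were read by the first probe set of each gene. Every member probe set is described. From each list the 2 genes with the smallest unadjusted p are named, and, of the class II region, transcription and interferon lists, those without overlap. Likeness was ranked by Pearson r, 10 genes per profile. The fit was tested on simulated data. Alternatives were array weights, quantile normalization, a replicate block, median centring, robust moderation with a trend, omission of suffixed probe sets or of the lowest class, a threshold of 0.1, gene means and each array left out. Figures used matplotlib 3.10.9.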

Additional observations from a re-analysis of the deposited data

How the results depend on the processing

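At a threshold of 0.05 no probe set passed under any of the settings tried (limma, unadjusted p under 0.05 in 387 to 1632 probe sets), and none did at 0.1 in the fit as reported. With trend and robust moderation 1 probe set, of Txnip and no member, had an adjusted p of 0.0668 (limma) and so passed at 0.1, a combination chosen after seeing the data. Of 183 log2 fold changes of member probe sets over 14 settings, none moved by as much as the pooled SD between replicates. For most settings this outcome was fixed beforehand. With 3 pools per genotype, leaving 1 array out cannot shift a value that far, and several settings leave the fold changes as they are. H2-Ab1 1425477_x_at, for instance, went from 0.27 to 0.044 without p300+/- 3. The sign changed in 11 of the 183, all on Ciita, on H2-DMa 1422527_at or on H2-Aa 1443783_x_at. The median over the members, 0.18, was 0.30 over gene means and 0.049 without probe sets ending in _a_at, _s_at or _x_at, a setting that keeps 4 of the 14 and drops Cd74. It ran from 0.081 to 0.25 with 1 array left out. The count of member probe sets without overlap, 3, was 1 of 4 without the suffixed probe sets (5.32% of all probe sets there) and 5 without both p300+/- 3 and wild-type 2 (28.3%). It ran from 3 to 7 with 1 array left out, beside 12.1% to 18.1% of all probe sets. The deviations of same-numbered pools from their genotype means correlated at 0.61, -0.23 and -0.47. These values cannot settle whether the numbers pair the samples, because the deviations within a genotype sum to 0. With the replicate number as a block the median was 0.18, the count 3 and 0 probe sets passed.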
